A study of Mus musculus with 36 samples.

Results

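The transcriptome of long-term hematopoietic stem cells (LT-HSC) was compared with that of HPC-1, a more differentiated progenitor population of the same bone marrow compartment, in mice infused with PBS. The members are the libraries labelled LT-HSC or ST-HSC, PBS and *Il27ra* heterozygous, which gives 3 libraries of each cell type, 6 of the 36 libraries of the series. The labels call the progenitors ST-HSC, and the study calls the same gate HPC-1. Cells were sorted from bone marrow by flow cytometry, 5000 per library: both were negative for lineage markers and positive for Sca-1 and c-Kit, and LT-HSC were then taken as CD48− with CD150, HPC-1 as CD48+ without CD150. Both groups came from C57BL/6 mice that lacked apolipoprotein E (*Apoe*−/−) and carried 1 intact and 1 disrupted allele of *Il27ra* (*Il27ra*+/−), which encodes the receptor subunit specific to the cytokine IL-27. The mice were put on a Western diet (WD) at 8 weeks of age. The study's legend for these libraries gives 12 weeks of diet with PBS from an osmotic pump in the last 2, and its methods give 10 or 12 weeks. The comparison asks how the stem cell and the progenitor differ in steady state, without angiotensin II (Ang II). No animals on normal diet or with intact *Apoe* are part of it, and the labels do not say whether each library is a separate animal, so that p-values measure the spread between these samples. The study's legend counts mice without linking them to libraries, and its own tests took the sex of the mice as a factor.

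LT-HSC sit at the top of the blood cell hierarchy. They divide rarely, renew themselves and can rebuild all blood lineages for the life of the animal, and a share of them is known to carry RNA of the platelet lineage. HPC-1 lie downstream in the Lin−Sca-1+c-Kit+ compartment. They divide more often, have little capacity for self-renewal and are heading toward myeloid and lymphoid fates.

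The values are estimated counts per gene. The LT-HSC libraries held 2191163, 2560838 and 5271346 counts and the HPC-1 libraries 3358062, 3103196 and 4922800. A limit of detection of 3 counts per library corresponds to 1.49 CPM (normalized counts scaled to a common library total) in the shallowest library and 0.536 in the deepest, which covers counting error only. Levels below are given as CPM in the order of replicates 1, 2 and 3.

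The libraries were not alike in ways that cut across cell type. The Y-linked genes *Ddx3y*, *Eif2s3y*, *Kdm5d* and *Uty* summed to 238 CPM in LT-HSC replicate 1 and to 274 and 271 in HPC-1 replicates 1 and 2. They were at 0.353 CPM in LT-HSC replicate 2 and at 0 in replicate 3 of both groups. *Xist*, the RNA of the inactive X chromosome, was 3.48, 5058 and 4693 CPM in LT-HSC and 0, 2.95 and 3743 in HPC-1. LT-HSC were thus 1 library with Y-linked RNA and 2 with *Xist*, HPC-1 the reverse, while the labels give no sex. The libraries with *Xist* also had counts in more genes. After thinning to the lowest total, 14931, 25731 and 18713 genes had a count in LT-HSC and 14554, 13999 and 19225 in HPC-1. *Gm42418*, a gene that overlaps ribosomal RNA, took 7.97%, 0.363% and 0.537% of the LT-HSC counts and 5.52%, 3.57% and 0.783% of the HPC-1 counts.

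LT-HSC and HPC-1 differed broadly. Of 12173 genes tested, 2144 (17.6%) differed at an adjusted p under 0.05 (edgeR quasi-likelihood test with Benjamini-Hochberg adjustment, used for every adjusted p given here). LT-HSC had higher levels of 1173 genes (9.64% of those tested) and lower levels of 971 (7.98%). These 2 shares are the comparison for every count of called genes in a list below. A gene could pass the filter on low counts through 1 group alone, so that list counts and medians describe the tested members only. Called genes on the stem cell side had the larger folds. Their median log2 fold change was 1.71 among genes higher in LT-HSC and −0.87 among genes lower there, against −0.003 over all tested genes. Without a filter on low counts the median over 28451 genes was 0.634. Libraries with counts in more genes were unevenly split between the groups, and their part in the larger folds was not tested. At least 4-fold differences were found for 498 genes higher and 129 genes lower in LT-HSC, and at least 16-fold differences for 148 and 33. The 3 LT-HSC values and the 3 HPC-1 values did not overlap for 4335 of the tested genes (35.6%), and 2127 of the 2144 called genes were among them. Among 11088 protein-coding genes 1123 were higher and 930 lower in LT-HSC, and among 458 long non-coding RNA genes 40 were higher and 12 lower. The count of called genes moved with the libraries used and was 945 without LT-HSC replicate 3, 1387 without LT-HSC replicate 2 and 1382 with all 12 groups of the series in 1 model, and 544 genes were lower in LT-HSC without HPC-1 replicate 1 and 378 without LT-HSC replicate 3. The balance of directions moved too, with 1322 higher and 751 lower with upper-quartile normalization, 1223 and 1312 with limma-voom and 967 and 1031 without a filter on low counts. On simulated data in which each gene had a spread of its own, edgeR made more false calls than its nominal rate, so that the adjusted p given here can be too small. Fewer cells of a type and less RNA per cell cannot be told apart in these bulk samples.

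**Figure D1:**
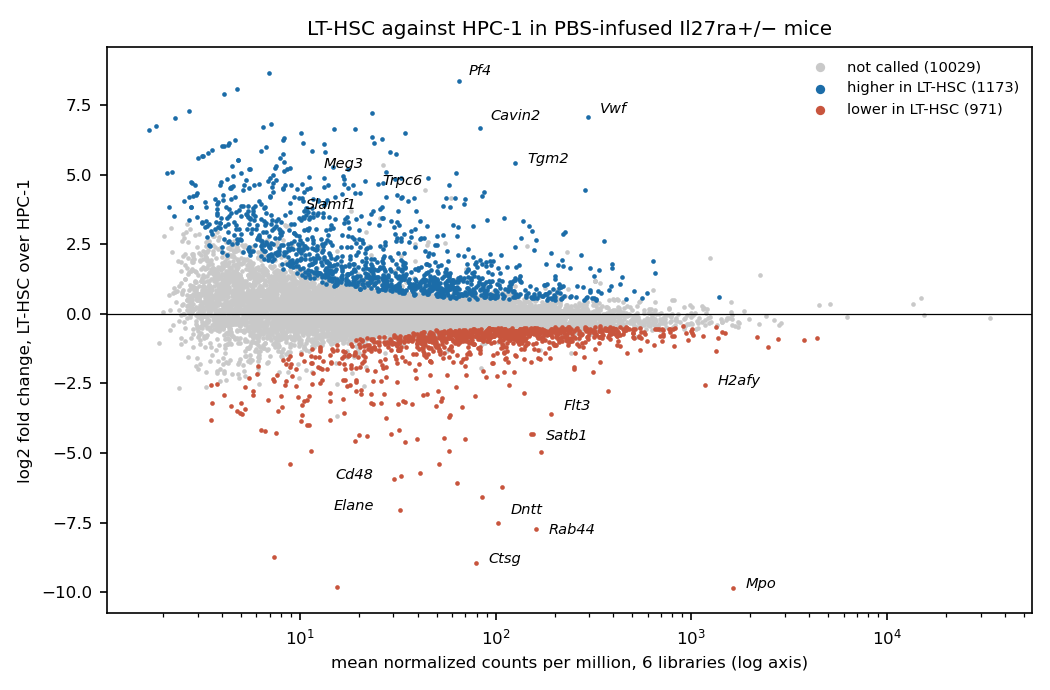
Each point is 1 of the 12173 tested genes, with the mean level over the 6 libraries in CPM on a log axis and the log2 fold change of LT-HSC over HPC-1 on the vertical axis. The 1173 genes called higher in LT-HSC reach further from 0 than most of the 971 called lower, with *Vwf*, *Pf4* and *Cavin2* at the top and *Mpo*, *Ctsg* and *Rab44* among the lowest.

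The RNA of the gating proteins followed the sort. *Slamf1*, which encodes CD150, was 32.3, 50.1 and 61.99 CPM in LT-HSC and 1.66, 3.93 and 4.74 in HPC-1. *Cd48* was 0.497, 0.706 and 1.25 CPM in LT-HSC and 44.2, 73.02 and 61.01 in HPC-1. The groups did not overlap for either gene, and since both proteins defined the gates, these values check the labels and are not a finding. *Mpo*, the myeloperoxidase of neutrophil granules, was not part of the gate. It was 0.497, 3.88 and 5.002 CPM in LT-HSC and 2510, 2499 and 4782 in HPC-1, far apart in all 6 libraries (log2 fold change −9.84 ± 0.68 SE, edgeR adjusted p = 3.96e-04). *Kit* and *Ly6a*, the genes of c-Kit and Sca-1, on which both populations were positive, were 1103, 782 and 952 and 6.96, 24.4 and 17.1 CPM in LT-HSC and 715, 766 and 559 and 5.65, 9.17 and 7.63 in HPC-1. Neither passed the test (edgeR adjusted p = 0.0865 and 0.117). *Ly6a* did without LT-HSC replicate 1, with a log2 fold change of 1.47, and *Kit* did with DESeq2 (adjusted p = 0.0437) and in edgeR with upper-quartile normalization (adjusted p = 0.0363) or a Y-linked covariate (adjusted p = 0.00745).

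CD34 and FLT3 mark the step from LT-HSC to later progenitors but were not used in the sort. *Cd34* was 108, 82.6 and 92.9 CPM in LT-HSC and 656, 774 and 525 in HPC-1, 6.91-fold higher in HPC-1 with no overlap (log2 fold change −2.79 ± 0.19 SE, edgeR adjusted p = 8.01e-07). *Flt3*, a cytokine receptor of multipotent and lymphoid progenitors, was 31.3, 22.6 and 33.8 CPM in LT-HSC and 350, 402 and 312 in HPC-1. That is 12.1-fold higher in HPC-1 (log2 fold change −3.59 ± 0.20 SE, edgeR adjusted p = 2.27e-07). *Fcgr2b*, the inhibitory Fc receptor, was also 5.56-fold higher in HPC-1 (edgeR adjusted p = 0.00374, or 0.0733 with all 12 groups in 1 model).

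*Slamf1* and *Cd48* are neighbours in the SLAM receptor cluster of chromosome 1, at chr1:171767127-171801184 and chr1:171682009-171705258 of GRCm38, both on the plus strand. Other receptors of the cluster were looked at after these values were seen. *Cd244a* (chr1:171559193-171609746, plus strand) encodes the receptor that binds CD48. It was 8.95, 5.65 and 6.97 CPM in LT-HSC and 94.03, 65.5 and 42.7 in HPC-1, 9.45-fold higher in HPC-1 (edgeR adjusted p = 2.66e-05, or 0.0564 with all 12 groups in 1 model). *Ly9* lies within *Cd244a* on the minus strand, at chr1:171588624-171607410, and was 8.95, 10.9 and 8.22 CPM in LT-HSC and 50.2, 31.1 and 36.5 in HPC-1 (log2 fold change −2.07 ± 0.30 SE, edgeR adjusted p = 4.43e-04). The libraries were stranded but the strand setting of the counting is not stated, so that counts of these overlapping genes are uncertain. *Cd84*, on the far side of *Slamf1* at chr1:171839697-171890718, overlapped between the groups, with 168, 118 and 160 CPM in LT-HSC and 104, 120 and 81.2 in HPC-1 (edgeR adjusted p = 0.0711).

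The genes altered in these mice were both higher in LT-HSC. *Il27ra*, of which 1 allele was intact in both groups, was 43.8, 26.8 and 26.4 CPM in LT-HSC and 15.6, 11.1 and 10.1 in HPC-1. The groups did not overlap, and LT-HSC were 2.62-fold higher (log2 fold change 1.39 ± 0.32 SE, edgeR adjusted p = 0.00939). *Apoe* still gave counts in these *Apoe*−/− mice, 11.4, 15.2 and 14.1 CPM in LT-HSC and 1.99, 6.55 and 3.71 in HPC-1, and a gene-level count does not show which part of the disrupted gene was transcribed. LT-HSC were 3.33-fold higher without overlap (edgeR adjusted p = 0.0335), a call that was lost without LT-HSC replicate 2 or 3 or HPC-1 replicate 1 or 3, with an adjusted p of up to 0.154 by edgeR, and also with all 12 groups in 1 model (adjusted p = 0.124), without a filter on low counts (adjusted p = 0.0633) and with a Y-linked covariate (adjusted p = 0.0533). Of 20 tested genes of IL-27 and JAK-STAT signalling, 4 were higher in LT-HSC (20%, against 9.64% of all tested genes) and none lower, with a median log2 fold change of 0.24, and 1 was lower without LT-HSC replicate 1. Besides *Il27ra* these were *Jak2* and the STAT5-induced feedback inhibitors *Cish* and *Socs2*. *Cish* was 29.3, 42 and 58.4 CPM in LT-HSC and 11.96, 7.53 and 5.15 in HPC-1 (5.39-fold, edgeR adjusted p = 6.06e-04). *Socs2* was 10.9, 22.9 and 18.8 CPM in LT-HSC and at 0, 0 and 1.03 in HPC-1, which rested on 5 counts there (edgeR adjusted p = 6.92e-04). *Jak2*, a kinase bound to cytokine receptors, was 1.64-fold higher in LT-HSC (edgeR adjusted p = 0.0076), but its adjusted p by edgeR was 0.0542 without LT-HSC replicate 3, 0.061 with all 12 groups in 1 model and 0.115 without a filter on low counts. *Jak1* and *Stat3*, which act directly below the IL-27 receptor, overlapped between the groups at 426, 368 and 449 and 264, 226 and 256 CPM in LT-HSC and 407, 418 and 308 and 222, 268 and 178 in HPC-1.

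Most genes of platelets and megakaryocytes were higher in LT-HSC. Of 21 tested genes, 18 were higher in LT-HSC and none lower, with a median log2 fold change of 3.04. *Vwf*, the von Willebrand factor of platelet granules and endothelium, was 482, 609 and 668 CPM in LT-HSC and 2.33, 3.93 and 6.18 in HPC-1. It was 134-fold higher in LT-HSC, and all 3 LT-HSC libraries lay far above all 3 of HPC-1 (log2 fold change 7.07 ± 0.30 SE, edgeR adjusted p = 9.10e-08). *Pf4*, the chemokine platelet factor 4, was 140, 157 and 90.6 CPM in LT-HSC, whereas HPC-1 replicates 1 and 2 had no count and replicate 3 had 4 (edgeR adjusted p = 1.96e-06). The fibrinogen receptor is made of the products of *Itga2b* and *Itgb3*. *Itgb3* was 274, 229 and 248 CPM in LT-HSC and 30.2, 18.99 and 25.6 in HPC-1 (10.02-fold, edgeR adjusted p = 4.24e-07). *Itga2b* was 415, 355 and 264 CPM in LT-HSC and 91.4, 98.2 and 82.7 in HPC-1, a 3.79-fold difference (edgeR adjusted p = 1.97e-05).

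Other members of the list had roles from membrane shape to transcription. *Cavin2*, a coat protein of caveolae, was 147, 162 and 184 CPM in LT-HSC and 0.332, 1.31 and 2.68 in HPC-1 (log2 fold change 6.66 ± 0.36 SE, edgeR adjusted p = 3.24e-07). *Zfpm1*, which encodes the GATA1 cofactor FOG1, was 654, 579 and 586 CPM in LT-HSC and 160, 150 and 220 in HPC-1 (3.43-fold, edgeR adjusted p = 2.01e-05). The 3 members that did not pass were *Selp* (91.98, 96.4 and 171 CPM in LT-HSC and 67.8, 82.2 and 89.7 in HPC-1), *F2rl2* (63.6, 51.9 and 33.8 and 38.2, 22.3 and 18.4) and *Gp9* (11.9, 8.47 and 11.6 and 0.332, 5.89 and 1.24). *Gp9* passed without HPC-1 replicate 2, at a log2 fold change of 3.58, and *F2rl2* without HPC-1 replicate 1, at 1.30. *Ptgs1*, the cyclooxygenase that makes thromboxane precursors in platelets, was outside the list but among the 12 leading genes and 9.21-fold higher in LT-HSC (edgeR adjusted p = 1.67e-06).

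**Figure D2:**
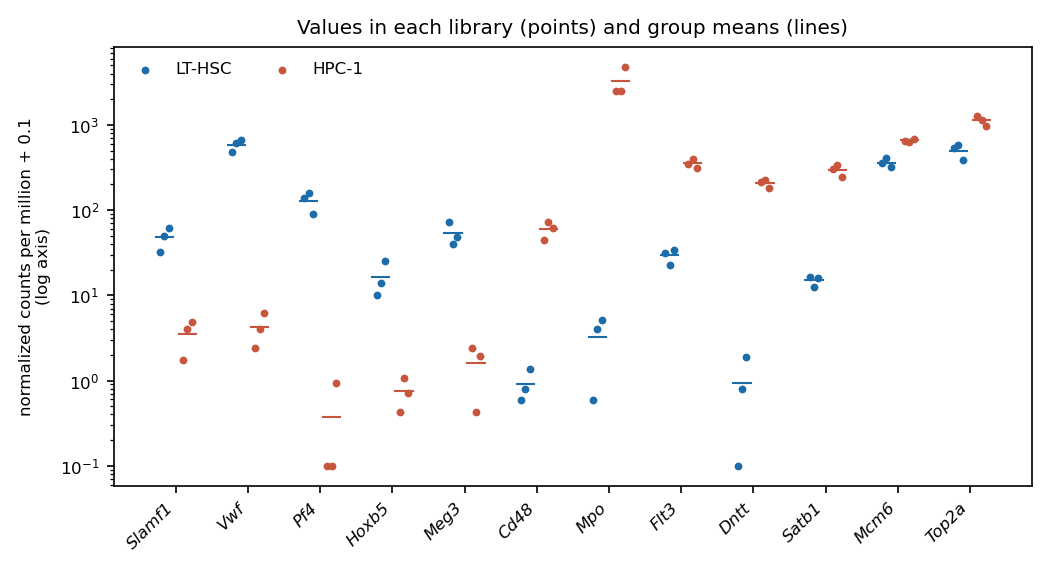
Each point is the level of a gene in 1 library, as CPM plus 0.1 on a log axis, for LT-HSC (blue) and HPC-1 (red), and lines are group means. The 3 LT-HSC libraries lie above the 3 HPC-1 libraries for *Slamf1* through *Meg3* and below them for *Cd48* through *Top2a*.

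Most genes used to isolate or trace LT-HSC were higher there. Of 18 tested genes, 16 were higher in LT-HSC and none lower, with a median log2 fold change of 2.64. *Fgd5*, an exchange factor for CDC42 whose locus is used to report LT-HSC, was 120, 126 and 165 CPM in LT-HSC and 17.3, 10.8 and 17.5 in HPC-1 (8.98-fold, edgeR adjusted p = 1.71e-06). *Esam*, an adhesion molecule shared by LT-HSC and endothelium, was 73.1, 58.2 and 75.2 CPM in LT-HSC and 10.3, 8.51 and 6.60 in HPC-1 (8.21-fold, edgeR adjusted p = 5.37e-06). *Ctnnal1*, which encodes α-catulin, was 56.2, 103 and 104 CPM in LT-HSC and 12.96, 12.1 and 12.8 in HPC-1 (6.97-fold, edgeR adjusted p = 1.49e-05). None of these groups overlapped. The members that did not pass were *Ly6e* and *Alcam*, and *Ly6e* was numerically lower in LT-HSC, at 240, 298 and 285 CPM against 318, 360 and 482 in HPC-1 (edgeR adjusted p = 0.0715). *Alcam* was 55.7, 46.95 and 90.6 CPM in LT-HSC and 22.6, 60.6 and 25.97 in HPC-1 and passed without HPC-1 replicate 2, at a log2 fold change of 1.39.

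Transcription factors tied to self-renewal were mostly higher in LT-HSC, 21 of 29 tested against 1 lower, with a median log2 fold change of 1.59. *Mllt3*, a reader of acetylated histones that maintains human and mouse stem cells, was 195, 216 and 289 CPM in LT-HSC and 29.2, 39.95 and 38.1 in HPC-1 (6.52-fold, edgeR adjusted p = 2.00e-06). *Prdm16*, which stem cells need for maintenance, was 81.5, 111 and 142 CPM in LT-HSC and 12.3, 16.1 and 19.2 in HPC-1 (6.99-fold, edgeR adjusted p = 8.60e-06). The groups were separate for both genes. The MYC family was split. *Mycn* was 172, 310 and 318 CPM in LT-HSC and 36.5, 29.8 and 24.3 in HPC-1 (log2 fold change 3.15 ± 0.26 SE, edgeR adjusted p = 8.29e-06), whereas *Myc* was 141, 229 and 201 CPM in LT-HSC and 379, 480 and 509 in HPC-1 (log2 fold change −1.26 ± 0.19 SE, edgeR adjusted p = 7.15e-04). Neither overlapped, and their directions were opposite. The single factor of the list that was lower in LT-HSC was *Gfi1*, a repressor that also acts in granulocyte development, at 6.46, 7.41 and 9.47 CPM against 37.5, 24.2 and 23.9 in HPC-1 (edgeR adjusted p = 0.00219). *Gata2*, which acts in stem cells and in mast cells, was 501, 393 and 480 CPM in LT-HSC and 164, 178 and 192 in HPC-1 (2.57-fold, edgeR adjusted p = 7.16e-05). *Foxo3* and *Msi2* overlapped between the groups, with 301, 262 and 306 and 536, 458 and 527 CPM in LT-HSC and 266, 367 and 308 and 482, 441 and 226 in HPC-1.

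Of 14 tested *Hox* genes 9 were higher in LT-HSC and none lower, with a median log2 fold change of 1.47. Some passed the filter on low counts through LT-HSC alone, such as *Hoxb8* with means of 5.44 CPM in LT-HSC and 0.137 in HPC-1. The count and median thus describe the tested members only. Another 7 were too low to test, and all 7 had the higher mean in LT-HSC. *Hoxb5*, a marker of LT-HSC, was 9.94, 13.8 and 25.01 CPM in LT-HSC and 0.332, 0.982 and 0.618 in HPC-1 (log2 fold change 4.61 ± 0.64 SE, edgeR adjusted p = 3.47e-04). *Hoxb6* was 11.9, 9.88 and 17.5 CPM in LT-HSC and 1.66, 0.328 and 1.24 in HPC-1 (edgeR adjusted p = 0.00236), and *Hoxa3* was 36.3, 37.4 and 56.5 and 13.3, 19.97 and 12.2 (2.90-fold, edgeR adjusted p = 0.00284, or 0.128 with all 12 groups in 1 model). The groups did not overlap for these 3. *Hoxa9*, with 64.6, 60.4 and 83.1 CPM in LT-HSC and 43.5, 58.6 and 43.9 in HPC-1, and *Hoxa7*, with 30.8, 36 and 43.05 and 43.2, 27.2 and 46.8, did not pass the test (edgeR adjusted p = 0.101 and 0.865). The count of called *Hox* genes was 3 without LT-HSC replicate 3 and 2 with all 12 groups in 1 model. Neighbouring *Hox* genes lie close together, some share transcripts, and their counts are therefore uncertain.

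Imprinted genes, which are expressed from only 1 parental allele and restrain growth in part of the cases, were also higher in LT-HSC in part. Of 12 tested, 8 were higher and none lower, with a median log2 fold change of 2.98. Some passed the filter on low counts through LT-HSC alone, such as *Igf2* with means of 4.36 CPM in LT-HSC and 0.109 in HPC-1. The count and median are therefore tilted toward LT-HSC and describe the tested members only. Another 8 were too low to test, and all 8 had the higher mean in LT-HSC. *Meg3*, the maternally expressed long non-coding RNA of the Dlk1-Meg3 cluster on chromosome 12 (chr12:109541001-109571726), was 72.1, 39.5 and 48.8 CPM in LT-HSC and 2.33, 0.328 and 1.85 in HPC-1 (log2 fold change 5.08 ± 0.45 SE, edgeR adjusted p = 8.60e-06). *Igf2r*, the receptor that clears IGF2, was 51.2, 51.2 and 67.5 CPM in LT-HSC and 7.64, 5.57 and 14.02 in HPC-1 (6.08-fold, edgeR adjusted p = 1.36e-04). *Grb10*, an adaptor that dampens insulin and IGF signalling, was 149, 166 and 182 CPM in LT-HSC and 5.65, 14.4 and 27 in HPC-1 (10.2-fold, edgeR adjusted p = 0.00596). The groups were separate in each. *Rian*, the neighbour of *Meg3* at chr12:109603940-109661716, was 24.4, 22.9 and 23.8 CPM in LT-HSC, while HPC-1 replicates 1 and 2 were at 0 and replicate 3 at 3.50. It was called (edgeR adjusted p = 0.0194) but not without LT-HSC replicate 2 or 3, with an adjusted p of up to 0.085 by edgeR, and not with DESeq2 (adjusted p = 0.0643). *Cdkn1c*, the imprinted inhibitor of cyclin-dependent kinases that marks quiescent stem cells, was 8.95, 13.4 and 17.9 CPM in LT-HSC and 0.332, 8.84 and 0.825 in HPC-1, where replicate 2 lay apart from the others. It did not pass the test (edgeR adjusted p = 0.152) but did without HPC-1 replicate 2, with a log2 fold change of 4.36. The list count was 5 without LT-HSC replicate 2 and 4 without LT-HSC replicate 3.

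The 12 leading genes higher in LT-HSC reached beyond these lists. *Trpc6*, a calcium channel, was 98.9, 102 and 132 CPM in LT-HSC and 5.32, 4.26 and 3.92 in HPC-1 (24.9-fold, edgeR adjusted p = 1.37e-07). *Tgm2*, a transglutaminase that cross-links proteins, was 239, 212 and 284 CPM in LT-HSC and 2.99, 5.24 and 8.45 in HPC-1 (42.1-fold, edgeR adjusted p = 4.40e-07). Neither overlapped. *Art4*, which carries the Dombrock blood group, *Ache*, which encodes acetylcholinesterase, and *Shank3*, a scaffold protein, were 15.3-fold, 55.4-fold and 4.54-fold higher in LT-HSC (edgeR adjusted p = 4.67e-07, 1.35e-06 and 1.55e-06).

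Dye efflux and aldehyde oxidation have long been used to enrich stem cells. Of 20 tested genes of efflux, aldehyde and redox metabolism, 4 were higher in LT-HSC (20%, against 9.64% of all tested genes) and none lower (median log2 fold change 0.32). *Aldh1a1*, a retinaldehyde dehydrogenase, was 130, 121 and 236 CPM in LT-HSC and 7.31, 10.5 and 8.24 in HPC-1 (18.8-fold, edgeR adjusted p = 2.00e-06). *Abcg2*, the transporter behind the side population phenotype, was 50.7, 69.9 and 74.3 CPM in LT-HSC and 26.9, 18.01 and 25.4 in HPC-1 (2.78-fold, edgeR adjusted p = 0.00101). *Abcb1a*, another drug transporter, was 9.35-fold higher (edgeR adjusted p = 0.0015). Without HPC-1 replicate 1 the list had 1 gene lower in LT-HSC.

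Some genes of neutrophil and monocyte granules were higher in HPC-1. Of 22 listed granule genes 10 were tested, and of these 8 were lower in LT-HSC and none higher, with a median log2 fold change of −3.39, a count that was 5 with all 12 groups in 1 model. The filter on low counts decided which members were tested, so that this count and median describe the tested members only. Of the 12 too low to test 11 had the higher mean in LT-HSC, 0 the lower, and 1 was equal. Low genes leaned that way in general, with a median log2 fold change of 0.634 over 28451 genes without the filter. For 2 of them all LT-HSC libraries lay above HPC-1, while 35.6% of all tested genes did not overlap in either direction. The 12 summed to 4.48, 12 and 87.9 CPM in LT-HSC and 6.65, 1.97 and 6.60 in HPC-1, highest in LT-HSC replicate 3. *Ctsg*, the serine protease cathepsin G, was 130, 123 and 221 CPM in HPC-1 and had 3 counts over the LT-HSC libraries against 1839, a ratio of 586 with a 95% counting interval (Clopper-Pearson) of 200 to 2850 (edgeR adjusted p = 1.37e-07). Counting intervals, here and below, cover counting error only and not the spread between libraries. *Elane*, neutrophil elastase, was 38.9, 45.5 and 110 CPM in HPC-1, while LT-HSC replicates 1 and 2 had no count and replicate 3 had 5 (edgeR adjusted p = 6.92e-04). Its neighbour *Prtn3*, proteinase 3, was 25.4, 26.1 and 50.02 CPM in LT-HSC and 83.1, 85.8 and 232 in HPC-1, lower in all 3 LT-HSC libraries but short of the threshold (log2 fold change −1.96 ± 0.55 SE, edgeR adjusted p = 0.0687). It passed without HPC-1 replicate 3, at a log2 fold change of −1.27, and with DESeq2 (adjusted p = 3.51e-06) and limma-voom (adjusted p = 0.0125), among other settings. *Lyz2*, the lysozyme of mature myeloid cells, overlapped, with 90.98, 87.5 and 114 CPM in LT-HSC and 91.4, 96.9 and 80.4 in HPC-1 (edgeR adjusted p = 0.679). Within HPC-1, replicate 3 had the highest *Mpo*, *Elane*, *Ctsg* and *Prtn3*.

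Lineage transcription factors were lower in LT-HSC in 11 of 23 tested cases and higher in 3 (13%, against 9.64% of all tested genes), with a median log2 fold change of −0.78. Another 7 of the 30 listed were too low to test, and all 7 had the higher mean in LT-HSC. They summed to 0.994, 35.3 and 6.61 CPM in LT-HSC and 1.99, 1.97 and 5.36 in HPC-1. The count and median describe the tested members only. *Cebpa*, the master regulator of granulocyte and monocyte fate, was 0.497, 3.18 and 5.002 CPM in LT-HSC and 52.2, 57.96 and 118 in HPC-1 (22.5-fold, edgeR adjusted p = 9.79e-04). *Spi1*, which encodes PU.1, was 34.3, 23.3 and 30.6 CPM in LT-HSC and 86.4, 79.9 and 90.7 in HPC-1 (2.92-fold, edgeR adjusted p = 2.02e-04). *Ikzf1*, which encodes the lymphoid factor IKAROS, was 150, 157 and 159 CPM in LT-HSC and 277, 341 and 298 in HPC-1 (1.96-fold, edgeR adjusted p = 7.54e-04). The groups were separate for all 3. *Sox4*, which early B cells need, was 2.69-fold higher in HPC-1 (edgeR adjusted p = 4.52e-05). Without LT-HSC replicate 3 the count of factors lower in LT-HSC was 6, and the count of factors higher there was 0 without LT-HSC replicate 2 or 3 or with all 12 groups in 1 model and 1 without HPC-1 replicate 2.

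Some genes of early lymphoid cells were also higher in HPC-1. Of 15 tested lymphoid genes 6 were lower in LT-HSC and 1 was higher (median log2 fold change −1.25). Another 9 were too low to test, of which 5 had the higher and 4 the lower mean in LT-HSC. *Dntt*, the terminal transferase of early lymphoid cells, was 0, 0.706 and 1.79 CPM in LT-HSC and 211, 225 and 181 in HPC-1 (181-fold, edgeR adjusted p = 2.74e-07). *Ighm*, the immunoglobulin μ constant region, was 4.97, 4.24 and 4.82 CPM in LT-HSC and 104, 128 and 82.04 in HPC-1 (22.2-fold, edgeR adjusted p = 2.74e-07, or 0.057 with all 12 groups in 1 model). *Satb1*, a chromatin organizer of the lymphoid program, was 16.4, 12.3 and 15.9 CPM in LT-HSC and 304, 340 and 242 in HPC-1 (19.8-fold, edgeR adjusted p = 1.12e-07). All 3 were separate in every library. *Ltb*, which encodes lymphotoxin β, went the other way, with 18.4, 18 and 21.6 CPM in LT-HSC and 3.65, 2.29 and 5.15 in HPC-1 (5.10-fold higher in LT-HSC, edgeR adjusted p = 0.00208, or 0.0625 with all 12 groups in 1 model). *Cd27*, a costimulatory receptor of the TNF receptor family, overlapped at 163, 56.5 and 70.2 CPM in LT-HSC and 287, 300 and 128 in HPC-1 and was lower in LT-HSC without LT-HSC replicate 1, at a log2 fold change of −1.90. The count of lymphoid genes higher in LT-HSC was 2 without HPC-1 replicate 2 or 3, and with all 12 groups in 1 model 0 were higher and 4 lower.

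Among the other leading genes of HPC-1, *Rab44*, a GTPase of hematopoietic granules, had the smallest adjusted p of all tested genes. It was 0.497, 2.82 and 1.07 CPM in LT-HSC and 321, 294 and 343 in HPC-1 (214-fold, log2 fold change −7.74 ± 0.33 SE, edgeR adjusted p = 6.98e-08). *Ncf1*, a subunit of the phagocyte NADPH oxidase, was 9.94, 6.71 and 8.04 CPM in LT-HSC and 98.3, 104 and 118 in HPC-1 (13.2-fold, edgeR adjusted p = 3.58e-07). *Ccl9*, a myeloid chemokine, was 42.5-fold higher in HPC-1 (edgeR adjusted p = 5.21e-07), and *Palm*, a membrane-bound phosphoprotein, 10-fold (edgeR adjusted p = 7.20e-07). *H2afy*, which encodes the histone variant macroH2A1, was 356, 307 and 352 CPM in LT-HSC and 2177, 1965 and 1906 in HPC-1, a 5.96-fold difference in an abundant gene (edgeR adjusted p = 4.71e-07). None of these 5 genes overlapped.

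The receptors that reach the cell from outside were divided between the populations. Of 28 tested growth factor and cytokine receptors, 8 were higher and 7 lower in LT-HSC (median log2 fold change 0.13). On the LT-HSC side, *Tek*, the angiopoietin receptor TIE2, was 72.1, 82.6 and 94.3 CPM in LT-HSC and 16.6, 9.82 and 18.1 in HPC-1 (5.54-fold, edgeR adjusted p = 2.66e-05). *Tgfbr3*, a coreceptor for TGF-β, was 255, 193 and 183 CPM in LT-HSC and 48.2, 26.2 and 45.5 in HPC-1 (5.23-fold, edgeR adjusted p = 2.60e-05), and *Ghr*, the growth hormone receptor, was 15.6-fold higher (edgeR adjusted p = 7.84e-05). On the HPC-1 side, *Csf1r*, the receptor for macrophage colony-stimulating factor, was 0.994, 4.24 and 2.68 CPM in LT-HSC and 39.2, 40.6 and 87.2 in HPC-1 (20.1-fold, edgeR adjusted p = 7.17e-05). *Csf2rb*, the shared chain of the IL-3, IL-5 and GM-CSF receptors, was 9.45, 10.9 and 11.2 CPM in LT-HSC and 65.5, 71.1 and 99.6 in HPC-1 (7.38-fold, edgeR adjusted p = 5.87e-06). *Il1r1* and *Il6ra*, the receptors for IL-1 and IL-6, were 4.07-fold and 3.43-fold higher in HPC-1 (edgeR adjusted p = 2.74e-04 and 3.30e-04). These genes were separate between the groups. Without LT-HSC replicate 3 the count of receptors higher in LT-HSC was 5.

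Adhesion molecules were divided too, with 8 of 30 tested higher and 7 lower in LT-HSC (median log2 fold change 0.37). *Jam2*, a junctional adhesion molecule, was 26.4, 37.4 and 48.6 CPM in LT-HSC and 5.98, 1.64 and 2.47 in HPC-1 (11.3-fold, edgeR adjusted p = 1.70e-04). *Itga6*, the α6 integrin of laminin receptors, was 251, 277 and 330 CPM in LT-HSC and 143, 150 and 118 in HPC-1 (2.09-fold, edgeR adjusted p = 8.91e-04). *Itgal*, the α chain of the leukocyte integrin LFA-1, was 4.97, 10.6 and 9.65 CPM in LT-HSC and 120, 84.8 and 121 in HPC-1, 12.4-fold higher in HPC-1 (edgeR adjusted p = 1.83e-06). *Selplg*, the P-selectin ligand, was 2.57-fold higher in HPC-1 (edgeR adjusted p = 2.22e-04).

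**Figure D3:**
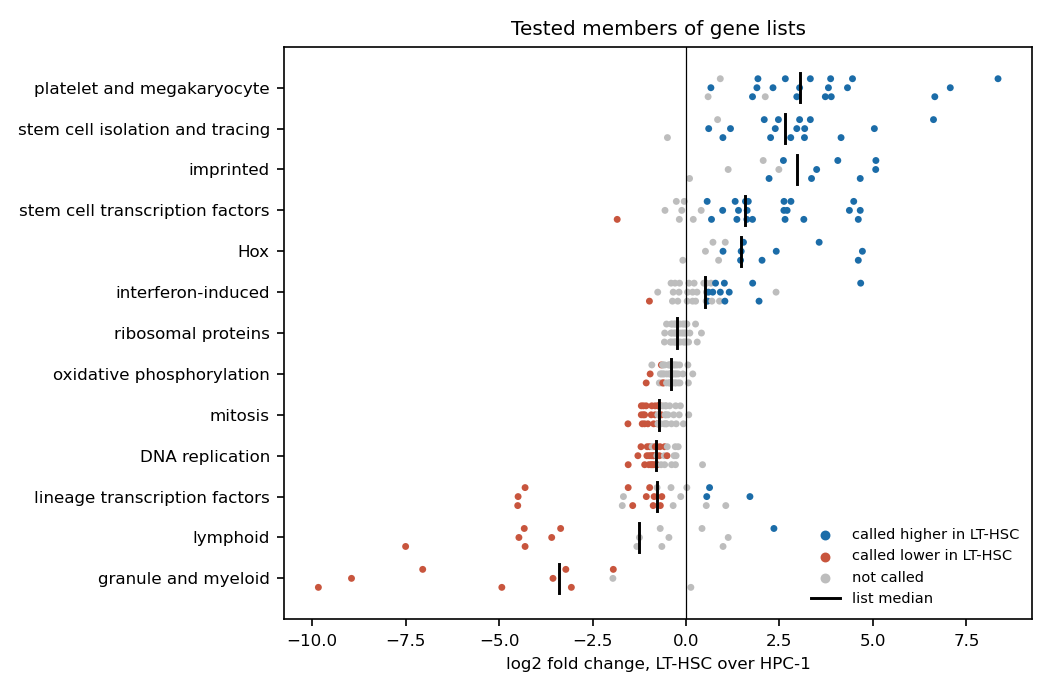
Each point is a tested gene of a list, placed by its log2 fold change of LT-HSC over HPC-1, blue where called higher in LT-HSC, red where called lower and grey where not called, and black bars are list medians. The lists drawn are not all lists of the text, and their medians run from 3.04 for platelet and megakaryocyte genes to −3.39 for granule and myeloid genes.

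Many proliferation genes were lower in LT-HSC. Of 37 tested genes of DNA replication, 23 were lower in LT-HSC and none higher (median log2 fold change −0.81), and 36 of the 37 fold changes were negative. *Mcm3*, a subunit of the replicative helicase, was 322, 254 and 219 CPM in LT-HSC and 650, 575 and 484 in HPC-1 (2.15-fold, log2 fold change −1.11 ± 0.18 SE, edgeR adjusted p = 0.00105). *Mcm6*, another subunit, was 354, 405 and 321 CPM in LT-HSC and 652, 637 and 683 in HPC-1 (1.82-fold, edgeR adjusted p = 0.00153). *Mcm5* and *Mcm7* of the same complex were 2.06-fold and 1.996-fold higher in HPC-1, and *Mcm10*, which helps activate it, 2.44-fold (edgeR adjusted p = 0.00148, 0.0015 and 0.0017). The groups did not overlap for these 5 genes. Of 44 tested genes of mitosis, 20 were lower in LT-HSC and none higher (median log2 fold change −0.72), with 43 negative fold changes. *Top2a*, the topoisomerase that untangles sister chromatids, was 529, 586 and 384 CPM in LT-HSC and 1266, 1137 and 975 in HPC-1 (2.25-fold, log2 fold change −1.17 ± 0.19 SE, edgeR adjusted p = 9.01e-04). *Cenpe*, a kinetochore motor, was 144, 205 and 163 CPM in LT-HSC and 409, 437 and 328 in HPC-1 (2.29-fold, edgeR adjusted p = 5.85e-04). *Ect2*, which starts cytokinesis, was 2.94-fold higher in HPC-1, and the mitotic kinesin *Kif20b* 2.16-fold (edgeR adjusted p = 0.00212 and 0.0016), and *Ect2* did not pass with all 12 groups in 1 model (edgeR adjusted p = 0.0968). Without LT-HSC replicate 3, which had the lowest *Top2a* and *Mcm3* of the 6 libraries, 12 replication and 10 mitosis genes were called lower in LT-HSC, and with all 12 groups in 1 model 15 and 7.

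The regulators of the cycle did not move as a block. Of 25 tested cyclins, kinases and their partners, 2 were higher (8%, against 9.64% of all tested genes) and 4 lower (16%, against 7.98%) in LT-HSC (median log2 fold change −0.27), and with all 12 groups in 1 model 0 and 1. *Cdk6*, the kinase that sets how readily a stem cell leaves quiescence, was 344, 263 and 204 CPM in LT-HSC and 639, 573 and 576 in HPC-1 (2.21-fold higher in HPC-1, edgeR adjusted p = 0.00112). *Ccnd3*, a D-type cyclin that pairs with it, was 195, 174 and 178 CPM in LT-HSC and 119, 97.9 and 111 in HPC-1 (1.66-fold higher in LT-HSC, edgeR adjusted p = 0.00694, or 0.0784 with all 12 groups in 1 model and 0.0905 without a filter on low counts). Both were separate between the groups, in opposite directions. The count of these regulators higher in LT-HSC was 1 without LT-HSC replicate 2 or 3 or HPC-1 replicate 2, and the count lower was 2 without LT-HSC replicate 2 or 3 or HPC-1 replicate 1 and 1 without HPC-1 replicate 2. Of 6 tested inhibitors of cyclin-dependent kinases none was called in either direction by edgeR (median log2 fold change 0.004), and 1 was without HPC-1 replicate 2. The groups did not overlap for 3 of them, 2 higher and 1 lower in LT-HSC, against 35.6% of all tested genes without overlap in either direction. The lower was *Cdkn1a*, which encodes p21, at 0, 3.88 and 1.43 CPM in LT-HSC and 5.98, 8.51 and 11.5 in HPC-1 (log2 fold change −2.23 ± 0.81 SE, edgeR adjusted p = 0.0765). It passed with DESeq2 (adjusted p = 0.0295) and in edgeR with a Y-linked covariate (adjusted p = 0.0361) or without a filter on low counts (adjusted p = 0.0397). *Cdkn1b*, which encodes p27, overlapped with 88, 67.8 and 92.3 CPM in LT-HSC and 87.4, 100 and 59.98 in HPC-1 (edgeR adjusted p = 0.99). Of 29 tested histone genes, 4 were lower in LT-HSC (13.8%, against 7.98% of all tested genes) and none higher (median log2 fold change −0.43). The histone count was 13 without LT-HSC replicate 1, 2 without LT-HSC replicate 2 or HPC-1 replicate 3, 1 without LT-HSC replicate 3 and 0 with all 12 groups in 1 model. Histone genes form a family of near-identical copies whose counts are uncertain. *Hist1h1a*, a linker histone, was 1.81-fold higher in HPC-1 (edgeR adjusted p = 0.00497, or 0.202 with all 12 groups in 1 model).

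The tested genes of DNA replication and mitosis were looked at for shared letters in their promoters, taken as 250 bases before to 50 bases after the start in RefSeq (GRCm38.p6), with the first entry for each gene. A promoter was found for 31 of 37 replication genes, 37 of 44 mitosis genes and 9 of 10 granule genes, and matches were counted on both strands. The CHR letters TTTGAA were in 27 of the 37 mitosis promoters (73.0%), 6 of the 31 replication promoters (19.4%) and 18.1% of all 27025 promoters. The letters CCAAT were in 28 of the 37 (75.7%), 20 of the 31 (64.5%) and 37.9%. E2F letters, searched as GCGGGAAA, TTTGGCGC or TTTCGCGC, were in 9 of the 31 replication promoters (29.0%), 1 of the 37 mitosis promoters (2.70%) and 1.91% of all promoters. ETS letters, searched as CCGGAAG, were in 9 of the 31 (29.0%), 8 of the 37 (21.6%) and 9.12% of all. They were also in 13 of 33 promoters of ribosomal protein genes (39.4%), none of which was called, so that they were not particular to proliferation genes. These lists include the members that were not called, and a match is a description of the letters and not of binding. The sequences of *Top2a* (chr11:99024140-99024439, minus strand) and *Ect2* (chr3:27153829-27154128, minus strand) show the mitosis pattern, with CHR letters and CCAAT of either strand in capitals and no overlap between them, printed from 5′ to 3′ along the gene.
Top2a: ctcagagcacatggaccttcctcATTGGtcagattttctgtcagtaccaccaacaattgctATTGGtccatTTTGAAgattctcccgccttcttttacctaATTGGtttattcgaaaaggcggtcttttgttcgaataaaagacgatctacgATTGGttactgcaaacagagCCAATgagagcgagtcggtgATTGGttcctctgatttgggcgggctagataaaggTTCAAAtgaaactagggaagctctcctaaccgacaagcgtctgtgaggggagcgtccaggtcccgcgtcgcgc
Ect2: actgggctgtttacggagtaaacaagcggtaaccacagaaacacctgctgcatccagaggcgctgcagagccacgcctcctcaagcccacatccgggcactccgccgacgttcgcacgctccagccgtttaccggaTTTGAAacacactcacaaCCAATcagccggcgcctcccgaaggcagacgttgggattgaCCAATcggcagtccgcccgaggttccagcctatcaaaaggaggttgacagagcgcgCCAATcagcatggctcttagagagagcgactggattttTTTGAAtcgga

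*Mcm3* (chr1:20820263-20820562, minus strand), *Mcm5* (chr8:75109259-75109558, plus strand) and *Mcm6* (chr1:128359656-128359955, minus strand) are among the 9 of 31 replication promoters with E2F letters, while *Mcm10* had none. E2F letters and CCAAT are in capitals. E2F matches that overlap each other run together in *Mcm5* and *Mcm6*, and none overlaps a CCAAT.
Mcm3: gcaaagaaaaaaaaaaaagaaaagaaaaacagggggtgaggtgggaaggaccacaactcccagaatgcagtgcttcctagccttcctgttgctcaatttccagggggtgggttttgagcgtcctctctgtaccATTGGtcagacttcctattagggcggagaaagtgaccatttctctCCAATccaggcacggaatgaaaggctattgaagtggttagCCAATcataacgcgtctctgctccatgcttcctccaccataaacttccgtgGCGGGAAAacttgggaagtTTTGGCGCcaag
Mcm5: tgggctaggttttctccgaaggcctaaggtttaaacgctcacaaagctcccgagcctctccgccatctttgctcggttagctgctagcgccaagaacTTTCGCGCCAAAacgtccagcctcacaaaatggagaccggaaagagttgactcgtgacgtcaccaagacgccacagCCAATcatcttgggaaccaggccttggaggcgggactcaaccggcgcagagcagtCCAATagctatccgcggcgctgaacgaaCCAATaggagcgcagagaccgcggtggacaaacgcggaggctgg
Mcm6: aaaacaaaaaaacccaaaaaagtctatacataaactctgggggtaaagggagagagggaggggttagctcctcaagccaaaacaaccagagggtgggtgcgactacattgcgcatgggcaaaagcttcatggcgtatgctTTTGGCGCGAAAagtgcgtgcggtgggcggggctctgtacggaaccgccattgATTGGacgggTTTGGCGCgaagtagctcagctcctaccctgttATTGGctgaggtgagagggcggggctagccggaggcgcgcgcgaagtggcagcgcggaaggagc

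The granule genes *Mpo* (chr11:87793534-87793833, plus strand), *Elane* (chr10:79886062-79886361, plus strand) and *Prtn3* (chr10:79879417-79879716, plus strand) each hold the PU.1 letters GAGGAAGT once, in capitals below. These letters were in 3 of the 9 granule promoters (33.3%) and in 3.28% of all promoters, while RUNX letters (TGTGGT) were in 4 of the 9 (44.4%) and in 16.9%. C/EBP letters (TTGCNNAA) were in 2 of the 9 (22.2%) against 10.8%, and GATA letters (AGATAA) in 0 against 11.4%.
Mpo: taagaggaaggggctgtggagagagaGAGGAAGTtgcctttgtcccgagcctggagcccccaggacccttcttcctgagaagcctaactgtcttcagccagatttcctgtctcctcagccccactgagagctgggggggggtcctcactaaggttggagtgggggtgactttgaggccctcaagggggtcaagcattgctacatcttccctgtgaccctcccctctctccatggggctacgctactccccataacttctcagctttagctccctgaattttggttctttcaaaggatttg
Elane: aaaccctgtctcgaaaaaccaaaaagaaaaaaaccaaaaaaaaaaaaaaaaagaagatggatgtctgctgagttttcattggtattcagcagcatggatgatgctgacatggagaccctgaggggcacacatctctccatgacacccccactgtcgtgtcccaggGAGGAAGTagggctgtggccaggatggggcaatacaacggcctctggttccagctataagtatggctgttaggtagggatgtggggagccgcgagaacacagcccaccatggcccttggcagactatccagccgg
Prtn3: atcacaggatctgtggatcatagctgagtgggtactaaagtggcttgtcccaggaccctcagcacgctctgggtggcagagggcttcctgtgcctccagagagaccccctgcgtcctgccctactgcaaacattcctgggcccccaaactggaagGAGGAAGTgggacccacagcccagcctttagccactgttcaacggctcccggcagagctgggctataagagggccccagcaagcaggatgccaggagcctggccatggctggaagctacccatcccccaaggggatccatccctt

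Of 44 tested ribosomal protein genes none was called in either direction by edgeR (median log2 fold change −0.23), while 2 were lower in LT-HSC without LT-HSC replicate 1 and 1 with all 12 groups in 1 model. *Rpsa*, a protein of the small subunit, was 2623, 2108 and 2574 CPM in LT-HSC and 2853, 3070 and 3669 in HPC-1 (edgeR adjusted p = 0.139). Ribosomal protein genes have many processed copies, and their counts are uncertain. Of 21 tested genes of the MYC network and ribosome production 6 were lower and 1 higher in LT-HSC (median log2 fold change −0.26). *Ncl*, nucleolin, was 2057, 1831 and 1858 CPM in LT-HSC and 4428, 3166 and 3276 in HPC-1 (1.89-fold, edgeR adjusted p = 0.00343), and *Npm1*, nucleophosmin, was 1.75-fold higher in HPC-1 (edgeR adjusted p = 0.00394). Of 50 tested nuclear genes of oxidative phosphorylation 5 were lower in LT-HSC (10%, against 7.98% of all tested genes) and none higher, with 47 negative fold changes and a median of −0.41. *Cycs*, cytochrome c, was 52.7, 50.1 and 38.4 CPM in LT-HSC and 87.05, 107 and 79.2 in HPC-1 (1.95-fold, edgeR adjusted p = 0.00521, or 0.0774 with all 12 groups in 1 model). The oxidative phosphorylation count was 1 without LT-HSC replicate 3, 2 without LT-HSC replicate 2 and 3 without HPC-1 replicate 1 or 3, and the MYC network count was 3 without LT-HSC replicate 3 or HPC-1 replicate 1. Genes encoded in mitochondrial DNA were not analysed here.

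Of 23 tested genes of glucose use 3 were higher (13%, against 9.64% of all tested genes) and 4 lower (17.4%, against 7.98%) in LT-HSC, and with all 12 groups in 1 model 2 were higher. Their median log2 fold change was 0.06 and ran from −0.25 to 0.29 over the settings. *Slc2a3*, the high-affinity glucose transporter GLUT3, was 137, 154 and 168 CPM in LT-HSC and 44.2, 43.5 and 36.3 in HPC-1 (3.71-fold higher in LT-HSC, edgeR adjusted p = 1.33e-05). *Pdk4*, a kinase of the pyruvate dehydrogenase complex, was 5.47, 7.77 and 5.54 CPM in LT-HSC and had 1 count in HPC-1 against 64. That is a ratio of 66.9 with a 95% counting interval of 11.6 to 2680 (edgeR adjusted p = 0.00379). *Hk3*, a hexokinase of myeloid cells, was 20.4, 11.3 and 21.97 CPM in LT-HSC and 111, 128 and 180 in HPC-1 (7.75-fold higher in HPC-1, edgeR adjusted p = 1.83e-05). Of 26 tested cholesterol genes, which the diet bears on, 2 were higher in LT-HSC (7.69%, against 9.64% of all tested genes) and none lower (median log2 fold change 0.13). They were *Stard4*, a cholesterol transfer protein, at 112, 118 and 118 CPM in LT-HSC and 69.1, 64.2 and 57.5 in HPC-1 (1.83-fold, edgeR adjusted p = 0.00292), and *Abca1*, the efflux transporter, at 149, 120 and 170 and 71.1, 117 and 62.7 (edgeR adjusted p = 0.0334). The *Abca1* call was lost without LT-HSC replicate 1 or 3 or HPC-1 replicate 1 or 3, with an adjusted p of up to 0.151 by edgeR. It was also lost with all 12 groups in 1 model (adjusted p = 0.31 by edgeR) and without the robust option (adjusted p = 0.0506 by edgeR), and without LT-HSC replicate 1 a gene of the list was lower in LT-HSC. Of 15 tested genes of insulin, IGF and FOXO signalling 6 were higher and 1 lower in LT-HSC (median log2 fold change 0.52), among them *Igf2r* and *Grb10*, and the count higher was 2 without LT-HSC replicate 3 and 4 with all 12 groups in 1 model.

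Immune genes were expressed in both populations. Interferon-induced genes were higher in LT-HSC in 11 of 36 tested cases and lower in 1, with a median log2 fold change of 0.51. *Rsad2*, the antiviral enzyme viperin, was 36.3, 35.6 and 38.8 CPM in LT-HSC and 7.64, 8.19 and 12.4 in HPC-1 (3.87-fold, edgeR adjusted p = 6.15e-04). *Iigp1*, an interferon-inducible GTPase, was 40.8, 107 and 57.9 CPM in LT-HSC and 13.9, 22.6 and 23.1 in HPC-1 (3.44-fold, edgeR adjusted p = 0.0057, or 0.0579 with all 12 groups in 1 model). The interferon count was 2 with all 12 groups in 1 model, 4 without LT-HSC replicate 2 and 5 without LT-HSC replicate 3, HPC-1 replicate 1 or HPC-1 replicate 2, and 2 genes were lower in LT-HSC without HPC-1 replicate 3. Of 10 tested MHC class II genes 3 were higher and 2 lower in LT-HSC (median log2 fold change 0.31), and with all 12 groups in 1 model 1 and 1. *Cd74*, the invariant chain, was 56.7, 48 and 32.7 CPM in LT-HSC and 2.66, 6.22 and 5.98 in HPC-1 (9.001-fold, edgeR adjusted p = 6.65e-05), and *H2-Aa* was 11.9, 24 and 13.9 and 0.997, 1.64 and 3.71 (7.40-fold, edgeR adjusted p = 0.00368, or 0.0508 with all 12 groups in 1 model). *Ctss*, the protease that trims the invariant chain, was lower in LT-HSC, at 8.45, 6.35 and 7.50 CPM against 26.9, 20.6 and 30.5 (edgeR adjusted p = 0.00217, or 0.215 with all 12 groups in 1 model). Of 18 tested MHC class I and antigen processing genes 4 were higher (22.2%, against 9.64% of all tested genes) and 3 lower (16.7%, against 7.98%) in LT-HSC (median log2 fold change −0.008). *H2-Q7* was 463, 464 and 354 CPM in LT-HSC and 259, 228 and 232 in HPC-1 (1.78-fold, edgeR adjusted p = 0.00309, or 0.0701 with all 12 groups in 1 model), but the H2-Q genes are near-identical copies that share reads. The class I count of genes higher in LT-HSC was 0 with all 12 groups in 1 model, 1 without LT-HSC replicate 1 or 3 and 2 without LT-HSC replicate 2 or HPC-1 replicate 1, and the count lower was 1 without LT-HSC replicate 2 or 3 or HPC-1 replicate 1 and 2 with all 12 groups in 1 model.

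Sensors of infection and NF-κB genes had 2 of 23 tested higher (8.7%, against 9.64% of all tested genes) and 5 lower (21.7%, against 7.98%) in LT-HSC (median log2 fold change 0.003). With all 12 groups in 1 model none of these was higher. *Nfkbia*, the inhibitor IκBα, was 69.6, 45.5 and 48.2 CPM in LT-HSC and 28.6, 28.8 and 24.7 in HPC-1 (1.98-fold, edgeR adjusted p = 0.0108, or 0.0647 with all 12 groups in 1 model). *Rel*, a subunit of NF-κB, was 5.97, 11.7 and 10 CPM in LT-HSC and 21.3, 31.4 and 26.2 in HPC-1 (2.81-fold higher in HPC-1, edgeR adjusted p = 0.009). Of 21 tested genes of Notch, Wnt and TGF-β signalling 3 were higher (14.3%, against 9.64% of all tested genes) and 3 lower (14.3%, against 7.98%) in LT-HSC (median log2 fold change 0.31), with *Skil*, a repressor of SMAD proteins, 2.45-fold higher in LT-HSC and the receptor *Notch1* 2.09-fold higher in HPC-1 (edgeR adjusted p = 7.80e-04 and 0.00308). The higher count of that list was 5 without HPC-1 replicate 3 and 1 without any other library or with all 12 groups in 1 model. Of 20 tested genes that are mutated in clonal hematopoiesis or edit chromatin 6 were lower in LT-HSC and none higher (median log2 fold change −0.22), with *Idh2*, a mitochondrial isocitrate dehydrogenase, at 140, 118 and 119 CPM in LT-HSC and 224, 241 and 288 in HPC-1 (2-fold, edgeR adjusted p = 0.00116). That count was 2 without LT-HSC replicate 3 or HPC-1 replicate 1, and 1 gene was higher in LT-HSC without LT-HSC replicate 1. The count of NF-κB genes lower in LT-HSC was 3 without LT-HSC replicate 3 and the count higher was 1 without LT-HSC replicate 2 or 3 or HPC-1 replicate 2. Of 19 tested p53 targets and regulators 3 were higher in LT-HSC (15.8%, against 9.64% of all tested genes) and none lower (median log2 fold change 0.02). *Plk2*, a p53-induced kinase, was 17.9, 16.2 and 54.8 CPM in LT-HSC and had 3 counts in HPC-1 against 389, a ratio of 136 with a 95% counting interval of 46 to 660 (edgeR adjusted p = 4.43e-04), and the p53 list count was 2 with all 12 groups in 1 model and 1 without LT-HSC replicate 3, with 1 gene lower without HPC-1 replicate 3. Of 12 genes of the renin-angiotensin system 3 could be tested, and *Anpep*, an aminopeptidase that cuts angiotensin III, was higher in LT-HSC at 10.9, 10.6 and 10.5 CPM against 0.664, 2.29 and 1.65 (6.78-fold, edgeR adjusted p = 0.0094), with an adjusted p of 0.073 by edgeR without LT-HSC replicate 3.

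Immediate early genes, which respond to growth signals and also to cell handling, varied between libraries of the same cell type. Of 22 tested 4 were higher in LT-HSC (18.2%, against 9.64% of all tested genes) and none lower, with 21 positive fold changes and a median of 1.14. *Egr1*, a zinc finger factor, was 129, 56.8 and 314 CPM in LT-HSC and 12.96, 6.55 and 5.36 in HPC-1 (log2 fold change 4.37 ± 0.88 SE, edgeR adjusted p = 0.0361), and *Jun* was 433, 100 and 379 and 225, 205 and 68.6, which overlapped. LT-HSC replicate 2 was the lowest of its group for both, and the part of cell handling was not tested. The *Egr1* call was lost without LT-HSC replicate 1 or any of the HPC-1 libraries, with an adjusted p of up to 0.115 by edgeR, and also without a filter on low counts (adjusted p = 0.13 by edgeR) and with a Y-linked covariate (adjusted p = 0.1 by edgeR). The list count was 0 without HPC-1 replicate 1, 1 without LT-HSC replicate 1 or 3 or HPC-1 replicate 3, 2 without HPC-1 replicate 2 and 8 without LT-HSC replicate 2.

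Markers of other cells that the gate should exclude were measured for whole lists. Of 10 red cell markers 6 were tested and 1 was higher in LT-HSC, a call that was lost without LT-HSC replicate 3 or HPC-1 replicate 1 or 2 or with all 12 groups in 1 model, and their summed level was 32.3, 88.95 and 924 CPM in LT-HSC and 8.64, 16.4 and 49.3 in HPC-1. LT-HSC replicate 3 stood apart. Its most abundant marker *Hba-a2*, an α-globin, was 3.48, 20.8 and 313 CPM in LT-HSC and 0, 2.95 and 14.2 in HPC-1 (edgeR adjusted p = 0.283), and globin copies share reads. Of 18 tested erythroid genes 3 were higher (16.7%, against 9.64% of all tested genes) and 1 lower (5.56%, against 7.98%) in LT-HSC (median log2 fold change 1.19), led by *Car2*, a carbonic anhydrase, with 354, 522 and 639 CPM in LT-HSC and 123, 176 and 207 in HPC-1 (2.996-fold, edgeR adjusted p = 0.00131). The erythroid count was 1 without LT-HSC replicate 3 or HPC-1 replicate 1 or with all 12 groups in 1 model and 6 without HPC-1 replicate 3, the count lower was 0 without LT-HSC replicate 3 or HPC-1 replicate 1 or with all 12 groups in 1 model, and the part of free red cell RNA in it was not tested.

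The other marker lists were summed in the same way, and LT-HSC replicate 3 had the highest sum of the neutrophil and B cell markers too low to test, 69.7 and 53.8 CPM. Of 8 T and NK cell markers too low to test 6 had the higher mean in LT-HSC and 0 the lower. All 9 such stroma and endothelium markers had the higher mean in LT-HSC, as did 10 of 16 intestinal ones, with 4 lower. Without a filter on low counts the median log2 fold change over 28451 genes was 0.634, against −0.003 over the tested genes. Genes too low to test thus leaned to LT-HSC in general, and the share of them with the higher mean there was not computed. For comparison with the counts below of markers that lay above HPC-1, 35.6% of all tested genes did not overlap in either direction. Neutrophil markers (10 genes, 2 tested, 1 lower in LT-HSC) summed to 105, 75.9 and 148 CPM in LT-HSC and 203, 235 and 167 in HPC-1, led by *Csf3r*, a receptor that progenitors also express, while *Ly6g* was at 0 in all 6 libraries. Of the 8 too low to test 7 had the higher mean in LT-HSC, 0 the lower, and 1 was equal. For 2 of them all LT-HSC libraries lay above HPC-1. Monocyte and macrophage markers (12 genes, 8 tested, 3 lower in LT-HSC and 1 without HPC-1 replicate 3 or with all 12 groups in 1 model) summed to 123, 123 and 142 CPM in LT-HSC and 178, 174 and 280 in HPC-1, led by *Lyz2*. All 4 too low to test had the higher mean in LT-HSC, and 2 lay above HPC-1 in all LT-HSC libraries. These 4 summed to 13.9, 3.88 and 6.25 CPM in LT-HSC and 0.332, 0 and 2.47 in HPC-1. B cell markers (10 genes, 3 tested, 1 lower in LT-HSC and 0 with all 12 groups in 1 model) summed to 17.9, 38.8 and 73.4 CPM in LT-HSC and 119, 156 and 103 in HPC-1, led by *Ighm* in HPC-1 but not in LT-HSC. All 7 markers too low to test had the higher mean in LT-HSC, and 3 of them lay above HPC-1 in all LT-HSC libraries. T and NK cell markers (12 genes, 4 tested, 1 lower and 1 higher in LT-HSC, the latter 0 without LT-HSC replicate 3, and both 0 with all 12 groups in 1 model) summed to 28.8, 33.9 and 31.8 CPM in LT-HSC and 48.8, 49.8 and 44.5 in HPC-1, led by *Nkg7* in HPC-1 (not called with all 12 groups in 1 model, edgeR adjusted p = 0.0973), with *Trac* and *Gzma* at 0. Stroma and endothelium markers (14 genes, 5 tested, 2 higher and 2 lower in LT-HSC) summed to 139, 181 and 175 CPM in LT-HSC and 270, 269 and 262 in HPC-1, led by *Pecam1*, which blood progenitors share. *Kdr*, an endothelial VEGF receptor, was 20.4, 42.4 and 34.3 CPM in LT-HSC and 0, 0 and 2.47 in HPC-1 (edgeR adjusted p = 0.00611), and *Pdgfrb*, a receptor of pericytes, was 11.9, 8.12 and 12.2 and 106, 91.03 and 86.4 (edgeR adjusted p = 1.71e-06), so that these markers did not move together. Intestinal markers (18 genes, 2 tested, 1 higher in LT-HSC, and 0 without LT-HSC replicate 1 or 3 or HPC-1 replicate 1 or 3) summed to 130, 79.4 and 101 CPM in LT-HSC and 40.5, 95.6 and 36.9 in HPC-1, led by *Krt18*, with *Tff3* and *Fabp1* at 0. Eosinophil, basophil and mast cell genes had 5 tested of 20, of which *Gata2* was higher and *Cpa3*, a mast cell protease, lower in LT-HSC, the latter at 0, 1.06 and 3.57 CPM against 32.6, 24.2 and 24.5 in HPC-1 (edgeR adjusted p = 0.00127), and the lower count was 3 without LT-HSC replicate 2. Non-coding RNA genes had 2 of 17 tested higher in LT-HSC (11.8%, against 9.64% of all tested genes) and none lower, *Meg3* and *Neat1*. *Neat1*, the scaffold of nuclear paraspeckles, was 663, 370 and 749 CPM in LT-HSC and 277, 164 and 133 in HPC-1 (edgeR adjusted p = 0.0234), and its adjusted p reached 0.0737 by edgeR when LT-HSC replicate 1 or 3 or HPC-1 replicate 2 or 3 was left out, and without LT-HSC replicate 1 the list had 1 gene lower in LT-HSC.

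The same cell types were compared in *Il27ra*+/− mice infused with Ang II, with 4 libraries of each type and none shared. Of 11504 genes tested there, 2182 (19%) were called. Both comparisons called 1379 genes, 64.3% of the PBS calls and 63.2% of the Ang II calls, and all 1379 had the same direction. Across 11402 genes tested in both, the fold changes had a Pearson r of 0.875, a description over genes, which are not independent. *Vwf* had a log2 fold change of 6.53, *Mpo* of −11.13, *Mcm6* of −0.66 and *Il27ra* of 1.34 with Ang II, against 7.07, −9.84, −0.87 and 1.39 with PBS. A test of the difference between the comparisons called 0 of 12929 genes by edgeR, with 306 at an unadjusted p under 0.05, 2 called by DESeq2 and 14 by edgeR without a filter on low counts.

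**Figure D4:**
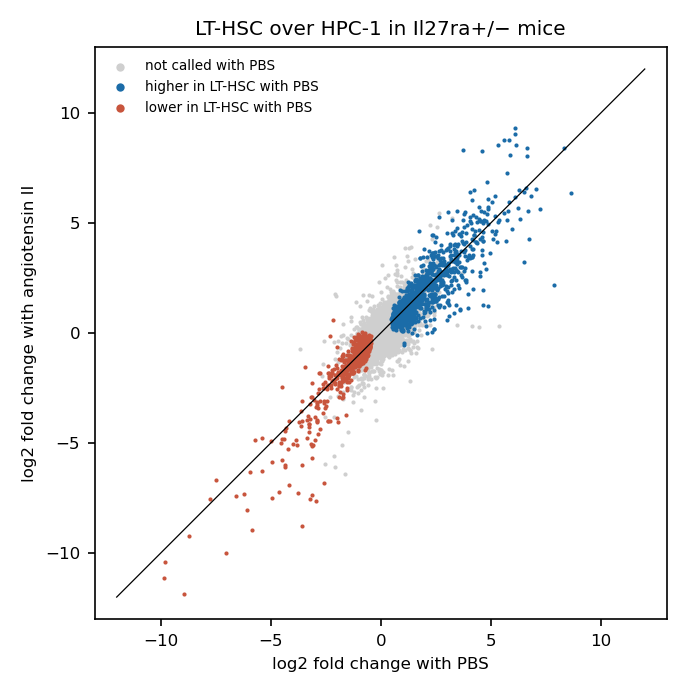
Each point is a gene tested in both settings, with the log2 fold change of LT-HSC over HPC-1 in PBS-infused *Il27ra*+/− mice on the horizontal axis and in Ang II-infused *Il27ra*+/− mice on the vertical axis, coloured by the call with PBS, and the line marks equal values. The points lie along the line, with a Pearson r of 0.875 across 11402 genes.

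In PBS-infused *Il27ra*−/− mice, with 3 libraries of each type, 0 of 12128 genes (0%) were called by edgeR, with 1202 at an unadjusted p under 0.05. Without LT-HSC replicate 2 of that group, a choice made after its values were seen, 1762 of 12598 genes (14%) were called. Of these 1263 were also called in *Il27ra*+/− mice, 71.7% of the former and 58.9% of the latter, and 1262 had the same direction. The test of the difference between the genotypes called 0 of 13103 genes by edgeR with all libraries and 0 of 13751 without that replicate, with 296 and 244 at an unadjusted p under 0.05, and 0 by DESeq2. A difference in the stem cell to progenitor change between these groups was therefore not detected, which does not show that the changes were equal.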

How the data were processed

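Total RNA of the sorted cells was sequenced as stranded paired-end libraries, and the authors deposited expected counts per Ensembl gene, as whole numbers without normalization. The study's methods name STAR and RSEM on mm10, the notes of the submitters name Bowtie2 and RSEM 1.2.31, and the Ensembl release is not stated. Symbols were matched for 37570 of 38887 identifiers with GENCODE M21 (GRCm38), and promoters were taken from RefSeq GRCm38.p6. Genes with enough counts for the group size (filterByExpr) were normalized by TMM and tested with the robust quasi-likelihood test of edgeR 4.0.16 in R 4.3.3, on LT-HSC against HPC-1, with p-values adjusted by Benjamini and Hochberg over all tested genes. CPM were scaled by the TMM-adjusted library totals, fold changes are those of the edgeR fit, and each SE was derived from the fold change and its test statistic. Replicate numbers do not link the cell types, so no block was used. The 2 other comparisons were fitted alike, and differences between comparisons as interaction terms. Alternatives used DESeq2 1.42.0, limma 3.58.1 and other settings of edgeR, and the 8 abundant structural RNA genes and the *Il27ra*−/− replicate were left out by choices made after seeing the data. Figures used Python 3.11.15 and matplotlib 3.10.9.

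The members and lists were chosen with earlier results of these data known. The named genes were *Slamf1*, *Cd48*, *Mpo*, *Il27ra* and *Apoe*, the 12 called genes of each direction with the smallest adjusted p, a mean of at least 10 CPM in the higher group and groups that did not overlap, and from each list up to 5 called genes of each direction and up to 3 abundant genes not called. *Eif2s3y*, *Uty*, *Gm42418*, *Cd244a*, *Ly9*, *Cd84*, *Rian*, *Cdkn1a* and the markers at 0 were named after their values were seen, and some genes that the rule names are not reported here. Genes encoded in mitochondrial DNA were not analysed here. The procedure was tested on simulated data: with spread that followed the trend, false calls of edgeR stayed under the nominal rate, and with a spread of its own for each gene they exceeded it in all runs.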

Additional observations from a re-analysis of the deposited data

How the results depend on the processing

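The count of called genes was within 1.5 times of 2144 under DESeq2, upper-quartile normalization, 2 other filters, limma-voom, thinning to the lowest total, the structural RNA genes left out, the test without its robust option and the Y-linked covariate, and with the replicate block, a pairing by number that the labels do not support, it was 2389. With all 12 groups in 1 model it was 1382, with 691 higher and 691 lower in LT-HSC, and tested against a log2 fold change of 1 it was 479, with 356 higher and 123 lower. Leaving out 1 library gave 945 to 2023 called genes, 567 to 1139 higher and 378 to 890 lower. The difference between PBS and Ang II had 2 called genes with DESeq2 and 14 without a filter on low counts, against 0. In PBS-infused *Il27ra*−/− mice 1762 genes were called without LT-HSC replicate 2, against 0. The cause of these changes was not tested.

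Of 113 called genes named in the text 90 were called in all 17 settings counted here. The test against a log2 fold change of 1 is not among the 17, and it called only 479 of the 2144 genes. With all 12 groups in 1 model 18 named genes lost the call, each named in the text with that adjusted p. That model also gave 5 growth factor and cytokine receptors higher in LT-HSC against 8, 2 immediate early genes against 4, and 1 cholesterol gene against 2. With the replicate block *Egr1* and *Krt18* were not called (edgeR adjusted p = 0.0541 and 0.108). Some genes given as not called passed elsewhere. *Cd84* had an adjusted p of 0.0362 with upper-quartile normalization and 0.0136 with the Y-linked covariate, *Ly6e* of 0.00556 and *Msi2* of 0.0273 with that covariate in edgeR, and *Gp9* of 0.0297 with DESeq2. *F2rl2* passed with DESeq2, *Cd27* and *Cdkn1c* with limma-voom. The sign reversed in 7 named genes that were not called. With 1 library left out in turn the log2 fold change ran from −9.677 to 0.313 for *Uty*, from −3.075 to 0.549 for *Gm42418*, from −0.314 to 0.08 for *Hoxa7*, from −0.007 to 0.2 for *Lyz2* and from −0.17 to 0.148 for *Cdkn1b*. With the Y-linked covariate *Ddx3y* was at 0.103, *Kdm5d* at 0.419 and *Uty* at 0.344. With limma-voom *Hoxa7* was at 0.01 and *Cdkn1b* at −0.017. *Cdkn1b* was also at −0.091 without a filter, −0.056 with all 12 groups and −0.043 after thinning. Depth limits the genes near 3 counts per library, where a difference was not detectable.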
